A study of Homo sapiens with 16 samples.

Results

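The change in polysome association after YBX1 knockout was measured in MOLM13 cells, an established human acute myeloid leukemia line that carries a KMT2A gene fusion. For each gene it is the log2 fold change of YBX1-knockout over control cells in polysomal RNA minus the same log2 fold change in total RNA, and it is called the log2 difference here. A positive value means that an mRNA gained on polysomes beyond its change in the whole cell, and a negative value that it lost. All 16 libraries of the series entered the comparison, and 12517 of the 18991 genes in the count table had enough reads to be tested. The cells expressed Cas9 from a lentivirus with blasticidin selection and a single guide from a second lentivirus with puromycin resistance and red fluorescent protein, and all were collected 14 days after transduction. The 4 groups were total RNA with sgLUC, a non-targeting control guide, total RNA with sgYBX1, a guide against YBX1, and polysomal RNA with each guide. Each group had 4 replicates. All knockout libraries came from the same guide in a single line, so an effect of that guide outside YBX1 cannot be told apart from loss of YBX1. The study's supplement describes the material for fractionation as coming from 4 replicate cultures and does not say whether each was transduced separately, so p-values measure the spread between these samples, which may be partly technical.

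YBX1 is a nucleic acid-binding protein with a cold-shock domain, and it packages mRNAs into particles. An mRNA that is being read by several ribosomes forms a polysome, which sinks deep into a sucrose gradient, whereas free mRNA and single ribosomes stay near the top. Cycloheximide was added before lysis to hold elongating ribosomes in place, and the heavy fractions were pooled as polysomal RNA. The share of an mRNA found in these fractions reflects how many of its copies carry many ribosomes, and it also depends on the length of the reading frame, since a short frame has room for few ribosomes.

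Libraries held between 38326270 and 66164414 counts, and the polysomal libraries varied more than the total RNA libraries (biological coefficient of variation 0.220 and 0.149 for polysomal sgLUC and sgYBX1, against 0.0562 and 0.0378 for total RNA). Levels are given as CPM, counts scaled to a common library size, after scaling by the trimmed mean of M values (TMM), which sets most genes to no change between libraries. The scaling matters for direction: with library totals alone every log2 difference is lower by 0.196, so gains and losses are relative to the bulk of expressed mRNAs and not absolute amounts. In bulk RNA a smaller share of an mRNA on polysomes and fewer cells with that mRNA on polysomes cannot be told apart. All 12 myeloid markers were present in total RNA, with a summed level of 3720 to 3970 CPM in sgLUC and 2880 to 2980 CPM in sgYBX1 libraries. Most of that gap was LYZ, at 2250 CPM in sgLUC and 1280 CPM in sgYBX1 total RNA. MPO, PTPRC and LYN were also lower with sgYBX1, and the other myeloid markers were slightly higher. The 7 erythroid and megakaryocytic markers summed to 0.0185 to 1.02 CPM over all libraries. Of 8 lymphoid markers, CD4, which monocytic cells also express, held 213 CPM in sgLUC total RNA, and CD3E, CD3G, CD8A and MS4A1 had under 0.1 CPM in every group. Of 8 epithelial and fibroblast markers, 6 or 7 had under 1 CPM, and the keratin gene KRT18 had 4.84 and 6.93 CPM in total and 24.5 and 35.8 CPM in polysomal RNA of sgLUC and sgYBX1 cells.

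Polysome association changed for many genes whose total RNA level hardly moved. Of the 12517 genes tested, 1232 rose (9.84%) and 863 fell (6.89%) by edgeR's quasi-likelihood test at a Benjamini-Hochberg adjusted p under 0.05, and the change was over 1.5-fold for 630 (5.03%) and 280 (2.24%) genes. With library totals in place of TMM factors the split was 677 higher and 2694 lower. List counts given below for library totals are to be read against this split of the same 12517 genes. Of the 2095 genes called, 1477 had a total change under 0.1 on the log2 scale in either direction. The polysomal change itself was above 0 for 1228 of the 1232 genes that rose and below 0 for 862 of the 863 that fell. To look at single libraries, a polysome ratio was taken as the log2 CPM of a polysomal library minus the mean total log2 CPM of the same guide. The 4 ratios of sgYBX1 did not overlap the 4 of sgLUC for 1107 of the genes that rose and 694 of those that fell, against 20.2% of all genes tested.

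**Figure D1:**
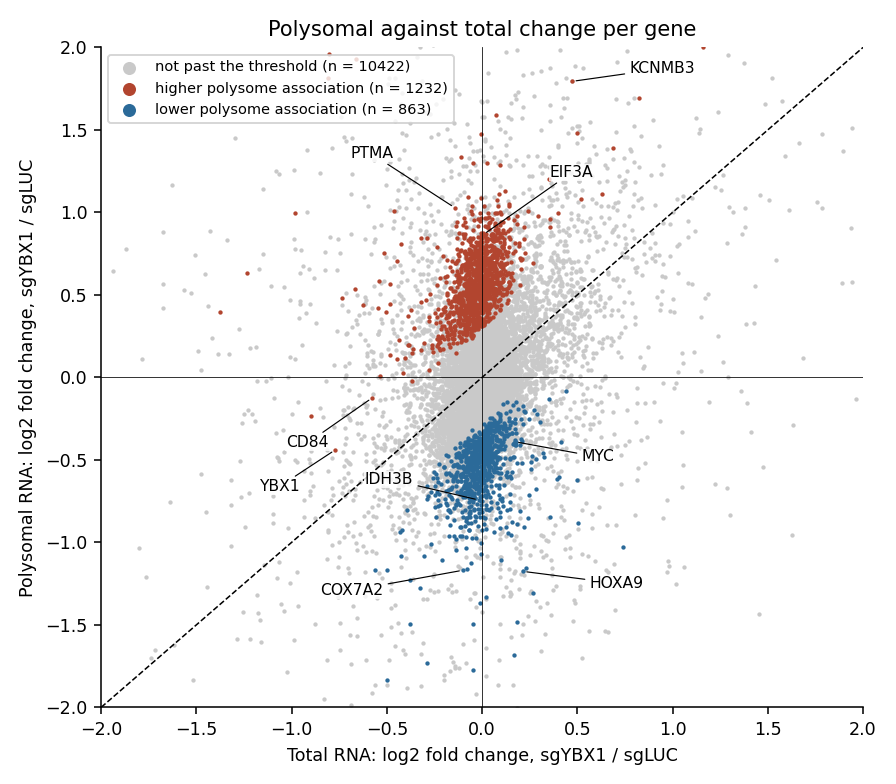
Each point is 1 of the genes tested, with the log2 fold change of sgYBX1 over sgLUC in total RNA on the x axis and in polysomal RNA on the y axis. Genes with higher association (1232, red) and lower association (863, blue) lie above and below the dashed line of equal change, mostly close to a total change of 0; 200 genes outside ±2 are not shown.

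YBX1, the targeted gene, was checked first. Its mRNA stood at 887 ± 21.2 CPM (SD, n = 4) in sgLUC and 519 ± 23.3 CPM in sgYBX1 total RNA, a log2 fold change of −0.77 ± 0.07 (SE). In polysomal RNA the sgLUC libraries had 966, 909, 803 and 823 CPM and the sgYBX1 libraries 644, 665, 647 and 623 CPM, so the groups did not overlap. The fall was smaller on polysomes than in total RNA, with a log2 difference of 0.33 ± 0.10 (adjusted p = 0.0229). This call was lost with library totals alone (0.13, adjusted p = 0.382), without polysomal sgLUC replicates 3 and 4, an alternative added after the data were seen (0.19, adjusted p = 0.151), without total sgLUC replicate 4 (adjusted p = 0.0525), total sgYBX1 replicate 1 (adjusted p = 0.0519) or replicate 3 (adjusted p = 0.0564), and with no expression filter (adjusted p = 0.0501). Over all alternatives its adjusted p lay between 0.00141 and 0.382. An edited gene can still give mRNA, and no protein data were used here.

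Among 11 genes taken from the study text or its antibody list, MYC and IDH3B fell and IGF2BP2 rose. These genes were chosen by the study partly on these samples, so their directions are not independent evidence. MYC, the growth-promoting transcription factor, had 91.6, 85.7, 99.7 and 141 CPM in the sgLUC polysomal libraries and 82.0, 84.7, 80.3 and 72.1 CPM in the sgYBX1 ones. Each of the sgYBX1 libraries was below each of the sgLUC libraries, though the lowest sgLUC and the highest sgYBX1 value were close. Total MYC was 752 ± 27.2 and 847 ± 28.5 CPM (log2 fold change 0.17, adjusted p = 0.928), and the log2 difference was −0.56 ± 0.15 (adjusted p = 0.0143). IDH3B, a subunit of the mitochondrial isocitrate dehydrogenase, had 177, 173, 157 and 171 CPM with sgLUC and 121, 101, 92.5 and 90.9 CPM with sgYBX1 on polysomes. Its total level was 111 ± 2.38 and 110 ± 2.75 CPM, which gave a log2 difference of −0.73 ± 0.11 (adjusted p = 3.5e-04). IGF2BP2, an mRNA-binding protein, had 138, 151, 172 and 127 CPM with sgLUC and 191, 198, 231 and 212 CPM with sgYBX1 on polysomes at 110 ± 1.56 and 114 ± 0.429 CPM in total RNA. Its log2 difference was 0.44 ± 0.12 (adjusted p = 0.0119), and the call was lost with library totals alone (0.25).

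The other 8 genes did not pass. EIF4B and EIF3L, subunits of the initiation machinery, had log2 fold changes of −0.45 and −0.48 in total RNA and −0.62 and −0.62 in polysomal RNA, so that the log2 differences were −0.17 ± 0.11 (adjusted p = 0.336) and −0.14 ± 0.11 (adjusted p = 0.447). EIF3D (−0.00 ± 0.09) and the elongation factor EEF2 (−0.04 ± 0.12) were near 0. The ribosomal protein genes RPS15 (−0.11 ± 0.11) and RPS15A (−0.36 ± 0.14, adjusted p = 0.0885) were below 0. BCL2 (0.23 ± 0.14, adjusted p = 0.28) and MCL1 (−0.25 ± 0.14, adjusted p = 0.232), which block apoptosis, had overlapping polysome ratios in the 2 guides. With library totals alone MCL1, EIF4B, RPS15 and RPS15A passed as lower. RPS15A also passed by voom with group weights and without polysomal sgLUC replicate 2 or 3 or polysomal sgYBX1 replicate 1, and BCL2 passed as higher without polysomal sgLUC replicate 1.

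The 12 largest gains among genes of at least 10 CPM, over 1.5-fold and without overlap were led by KCNMB3, a subunit of calcium-activated potassium channels. It had 14.0, 22, 24.4 and 18.0 CPM on polysomes with sgLUC and 58.9, 63.2, 74.9 and 75.5 CPM with sgYBX1, at 1.65 ± 0.225 and 2.28 ± 0.201 CPM in total RNA (log2 difference 1.32 ± 0.21, adjusted p = 3.8e-04). Every sgYBX1 library was above every sgLUC library, but ratios without overlap were part of how these genes were chosen. KCNMB3 reached a mean of 10 CPM only through its polysomal libraries. Next came PTMA (1.17), HMGN5 (1.09), ZNF609 (1.09), MNS1 (1.07), PPP4R2 (1.06), LUZP1 (1.05), ANP32B (1.04), MNDA (1.03), PPFIBP1 (1.03), ITSN1 (1.03) and PLCL2 (1.03). MNDA, a nuclear protein of myeloid cells, had 77.1, 72.5, 78.1 and 59.4 CPM with sgLUC and 132, 135, 140 and 145 CPM with sgYBX1 (log2 difference 1.03 ± 0.11, adjusted p = 4.0e-05). LUZP1, a leucine zipper protein, went from a mean of 90.4 to 171 CPM on polysomes (1.05 ± 0.12, adjusted p = 4.0e-05). PPP4R2 is a regulatory subunit of protein phosphatase 4, and ITSN1 an endocytic scaffold.

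The 12 largest losses were led by COX7A2 and by ILK, an integrin-linked pseudokinase. ILK had 10.9, 8.97, 11.5 and 13.7 CPM on polysomes with sgLUC and 6.26, 5.47, 5.72 and 3.95 CPM with sgYBX1, while total RNA held 46.6 ± 1.58 and 46.4 ± 1.99 CPM (log2 difference −1.06 ± 0.17, adjusted p = 3.8e-04). All sgYBX1 libraries were lower, but ratios without overlap were part of how these genes were chosen. After these came CYC1 (−1.0), RPL30 (−0.95), EDARADD (−0.95), PIP4P1 (−0.94), ATRAID (−0.93), PIK3R4 (−0.90), COX5A (−0.88), DTWD1 (−0.88), MRPL36 (−0.87) and ATG16L1 (−0.86). COX7A2, COX5A and CYC1 belong to the respiratory chain, MRPL36 and RPL30 to the mitochondrial and the cytosolic ribosome. ATG16L1 acts in autophagosome formation, for which PIK3R4, a subunit of the class III phosphatidylinositol kinase, is also needed. PIK3R4 stood apart in length, with a coding sequence of 4074 bases.

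**Figure D2:**
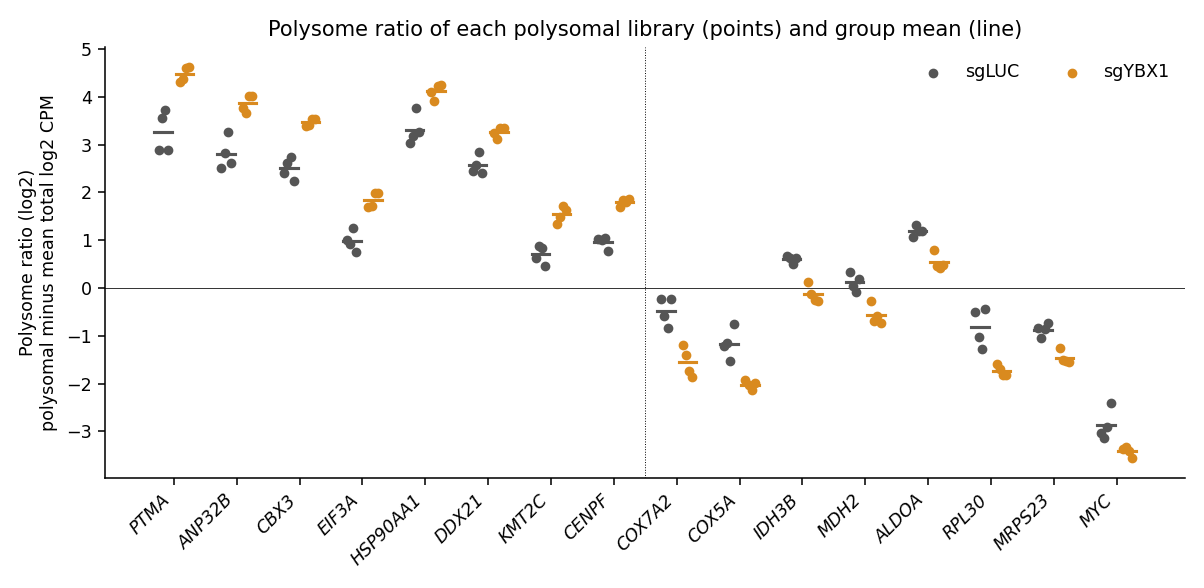
Polysome ratio (log2, y axis) of each polysomal library for 8 genes that rose and 8 that fell, with sgLUC in grey and sgYBX1 in orange; points are libraries and lines are means of 4. In each of the 16 genes the 2 sets of 4 points do not overlap, as in 20.2% of all genes tested. PTMA, ANP32B, COX7A2, COX5A and RPL30 were chosen partly for this. The sgLUC libraries are spread more widely than the sgYBX1 libraries in genes such as PTMA and RPL30, and less widely in IDH3B and ALDOA.

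Of 26 tested genes in a list of prothymosin, ANP32, HMG, HP1 and histone variant genes, 12 rose (46.2% against 9.84% of all genes tested) and 1 fell, with a median log2 difference of 0.31 against −0.04 over all genes. With library totals alone 6 rose and 6 fell and the median was 0.12, and with length and codon trends removed 5 rose and 5 fell (median −0.03). Fits without 1 library gave 8 (without total sgLUC replicate 1, for example) to 14 higher. PTMA encodes prothymosin alpha, a very acidic nuclear protein. It had 15312, 24432, 27392 and 15412 CPM on polysomes with sgLUC and 37328, 39075, 45721 and 46251 CPM with sgYBX1, against 2074 ± 49.6 and 1877 ± 59.0 CPM in total RNA (log2 difference 1.17 ± 0.19, adjusted p = 4.8e-04). The sgLUC libraries fell into a lower and a higher pair, and all sgYBX1 libraries were above both, but PTMA was chosen partly for ratios without overlap. ANP32B, an acidic histone chaperone, had 1854, 2310, 3136 and 2001 CPM with sgLUC and 4262, 3992, 5086 and 5114 CPM with sgYBX1 (1.04 ± 0.17, adjusted p = 3.9e-04). CBX3, a heterochromatin protein of the HP1 family, had 1270, 1477, 1616 and 1134 CPM with sgLUC and 2513, 2557, 2756 and 2786 CPM with sgYBX1 (0.96 ± 0.12, adjusted p = 1.0e-04). Total CBX3 was 241 ± 11.8 and 239 ± 6.73 CPM. HMGN5, a nucleosome-binding protein outside this list, had 256, 295, 574 and 430 CPM with sgLUC and 780, 722, 952 and 852 CPM with sgYBX1 (1.09 ± 0.23, adjusted p = 0.0027), and its call was lost with length and codon trends removed (0.34). HMGB1 (0.71), NUCKS1 (0.60) and PTMS (0.61) rose as well. H2AZ1, a histone variant, was the 1 gene of the list that fell (−0.69, named after its value was seen). PTMA, CBX3, HMGB1 and many ribosomal protein genes have near-identical processed copies in the genome, and how shared reads were counted is not given in the sources used here, so their levels are uncertain.

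Several mRNAs with large gains encoded stretches rich in lysine and glutamate, which their coding sequences show directly. The genes printed were picked by hand as examples and do not stand for all gains and losses. KCNMB3, which led the gains, is not printed. It had 10.75% lysine plus glutamate codons, against a median of 12.7% over all genes tested. For the following genes the 30-codon stretch richest in lysine and glutamate codons is printed from the GENCODE v29 transcript with the longest coding sequence (GRCh38), with the codons AAA, AAG, GAA and GAG in capitals. The first 5 genes rose and the last 4 fell.
PTMA: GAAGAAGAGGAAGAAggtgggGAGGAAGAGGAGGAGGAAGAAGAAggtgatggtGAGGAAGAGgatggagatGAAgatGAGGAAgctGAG
HMGN5: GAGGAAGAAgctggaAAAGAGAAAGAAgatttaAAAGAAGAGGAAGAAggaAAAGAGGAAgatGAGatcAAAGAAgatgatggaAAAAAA
ANP32B: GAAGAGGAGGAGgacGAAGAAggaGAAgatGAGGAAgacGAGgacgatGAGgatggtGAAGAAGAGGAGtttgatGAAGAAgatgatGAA
CBX3: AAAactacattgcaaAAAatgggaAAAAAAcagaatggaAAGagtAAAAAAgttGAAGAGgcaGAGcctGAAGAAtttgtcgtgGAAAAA
EIF5B: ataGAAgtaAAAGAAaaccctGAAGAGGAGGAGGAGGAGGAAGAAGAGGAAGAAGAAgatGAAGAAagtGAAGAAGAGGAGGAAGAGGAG
COX7A2: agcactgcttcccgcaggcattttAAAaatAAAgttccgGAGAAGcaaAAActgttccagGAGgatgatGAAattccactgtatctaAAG
COX5A: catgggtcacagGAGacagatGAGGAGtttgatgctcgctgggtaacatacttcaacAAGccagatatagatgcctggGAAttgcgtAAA
IDH3B: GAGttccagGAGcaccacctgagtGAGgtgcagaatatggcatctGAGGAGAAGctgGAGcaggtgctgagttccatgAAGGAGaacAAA
ALDOA: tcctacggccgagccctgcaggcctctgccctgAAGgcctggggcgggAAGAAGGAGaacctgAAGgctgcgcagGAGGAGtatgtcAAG

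In these stretches PTMA had 20 lysine or glutamate codons of 30, all of them for glutamate. HMGN5 had 20, ANP32B 18 and EIF5B 24, whereas CBX3 had 14, of which 8 were for lysine. IDH3B had 10, COX7A2 and ALDOA 8 and COX5A 6. The stretches lie in coding exons at chr2:231711932-231712480 (PTMA, plus strand, exons 3 to 4), chrX:81114673-81114762 (HMGN5, minus strand, exon 7), chr9:98005135-98011341 (ANP32B, plus strand, exons 4 to 5), chr7:26203011-26206445 (CBX3, plus strand, exons 2 to 3) and chr2:99376367-99376456 (EIF5B, plus strand, exon 10). Those of the genes that fell lie at chr6:75240356-75241235 (COX7A2, minus strand, exons 3 to 4), chr15:74929117-74929206 (COX5A, minus strand, exon 2), chr20:2663459-2663548 (IDH3B, minus strand, exon 4) and chr16:30069931-30070020 (ALDOA, plus strand, exon 9). Over all genes with a coding sequence of at least 30 codons, the richest stretch held a median of 13 such codons in the genes that rose, 8 in those that fell and 9 in those that did not pass. It held 15 or more in 450 of 1226 genes that rose (36.7%), 11 of 861 that fell (1.28%) and 455 of 10346 that did not pass (4.40%). Between 900 and 1500 bases of coding length these shares were 27.6%, 0.725% and 2.36%.

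The same contrast showed across whole coding sequences. Lysine plus glutamate codons made up a median of 16.9% of codons in genes that rose, 11.8% in genes that fell and 12.4% in the rest, while aspartate codons, the other acidic kind, made up 5.13%, 4.84% and 4.66%. Codons for leucine, isoleucine, valine and phenylalanine were fewer in genes that rose (21.7%) than in genes that fell (25.6%). Where lysine and glutamate codons made up 20% or more, 361 of 895 genes rose (40.3%) and 23 fell, and where they made up under 8%, 37 of 1492 rose (2.48%) and 128 fell. Guanine and cytosine at the third codon position had a median of 44.9% in genes that rose, against 62.0% in genes that fell and 61.4% in the rest. Both properties went with the difference: at 20% or more lysine and glutamate codons, 56.2% of genes rose where the third positions held under 40% guanine and cytosine, and 11.7% where they held 70% or more. Across the 8022 genes of at least 10 CPM, Spearman's rho with the log2 difference was 0.29 for lysine plus glutamate codons, 0.07 for aspartate codons and −0.17 for guanine and cytosine at the third codon position. With the change in total RNA it was −0.08 for lysine plus glutamate codons. These correlations are across genes, which are not independent replicates and share libraries.

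Genes that rose had longer reading frames than genes that fell. The median coding length was 2076 bases in genes that rose, 993 in genes that fell and 1404 in the rest, and the median 3′ untranslated region had 1412.5, 538 and 913 bases. Of 1003 genes with a coding sequence under 500 bases 31 rose (3.09%) and 132 fell (13.2%), and the median log2 difference was −0.18. Of 553 genes of 5000 bases or more 145 rose (26.2%) and 4 fell (0.723%), with a median of 0.34. Between these ends the median rose with each step of length. The largest values were found where both were high: the median was 0.69 in 129 genes of 3000 bases or more with at least 20% lysine and glutamate codons, of which 91 rose and 0 fell at an adjusted p under 0.05 by edgeR. It was −0.17 in 653 genes under 1000 bases with under 8% of these codons. When per-library trends with coding length were removed, 1839 genes were called, 1588 of them among the 2095. With trends for both coding length and lysine plus glutamate codons removed, an alternative added after the data were seen, 1474 were called, 1185 of them shared.

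**Figure D3:**
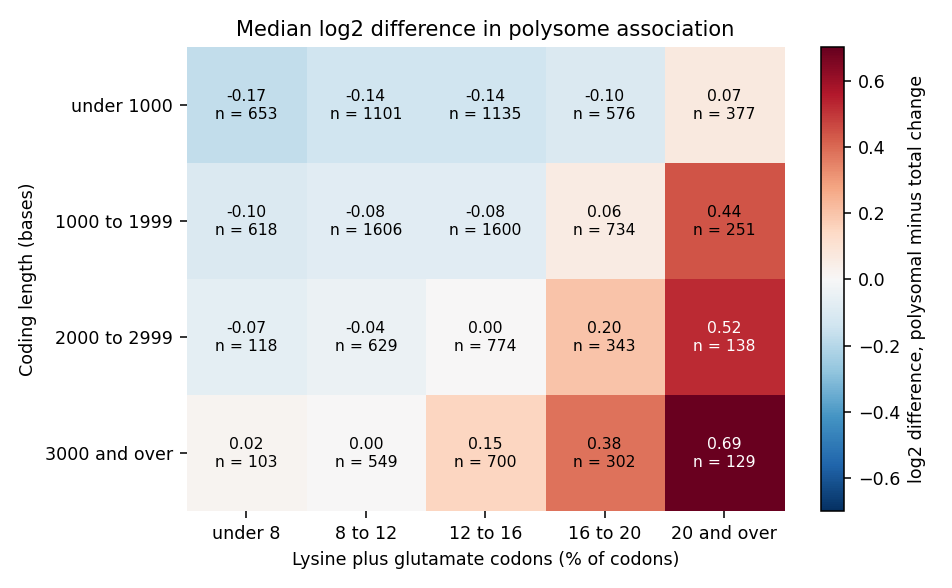
Median log2 difference of polysomal minus total change (colour and upper number) in genes grouped by coding length in bases (rows) and lysine plus glutamate codons as % of all codons (columns), with the number of genes in each cell. The median goes from −0.17 in the upper left to 0.69 in the lower right, and in short genes only the last column is above 0.

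The make-up of whole libraries moved the same way. Coding sequences under 1000 bases took 46.7%, 45.8%, 43.7% and 46.1% of the counts in sgLUC polysomal libraries and 42.4%, 41.2%, 39.7% and 40.1% in the sgYBX1 ones, a difference of −4.73 percentage points without overlap (exact permutation test, two-sided, p = 0.0286, the smallest that 4 against 4 allows). In total RNA the shares were 31.9%, 31.7%, 31.5% and 31.8% with sgLUC and 30.7%, 30.9%, 30.2% and 31.2% with sgYBX1. The difference was −0.938 percentage points, again without overlap (exact permutation test, two-sided, p = 0.0286). Ribosomal protein genes took 12.6% ± 1.01 (SD, n = 4) of sgLUC and 9.93% ± 0.540 of sgYBX1 polysomal counts. Without them the difference was −3.51 percentage points on polysomes and −0.501 in total RNA. The mean share of lysine plus glutamate codons per count was 15.5% to 15.9% in sgLUC and 16.3% to 16.7% in sgYBX1 polysomal libraries, and 14.3% to 14.4% in all total RNA libraries. Coding sequences of 3000 bases or more with at least 16% of these codons held 5.18% ± 0.426 of sgLUC and 7.23% ± 0.409 of sgYBX1 polysomal counts, and 4.51% ± 0.0688 and 4.55% ± 0.0774 in total RNA. Among the sgLUC polysomal libraries, replicate 3 lay nearest to the sgYBX1 libraries in both measures.

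**Figure D4:**
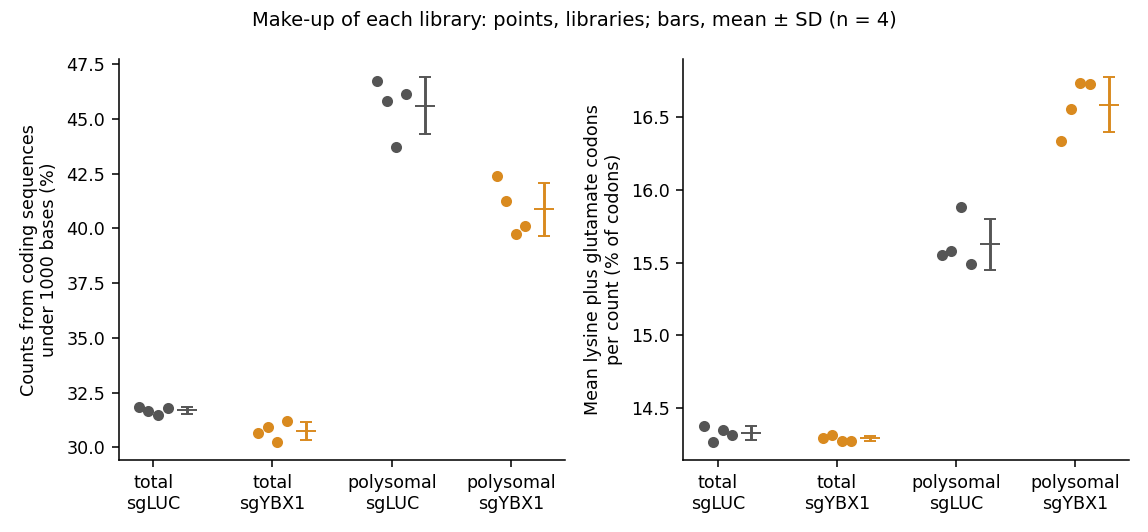
Share of counts from coding sequences under 1000 bases (left, %) and mean lysine plus glutamate codons per count (right, % of codons) in each library, by fraction and guide; points are libraries and bars the mean ± SD of 4. The polysomal sgYBX1 libraries lie between 39.7% and 42.4% on the left, below the sgLUC libraries at 43.7% to 46.7%; the y axes do not start at 0.

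Large chromatin regulators were the list with the highest share of gains. Of 48 tested genes 32 rose (66.7%) and 0 fell by edgeR at an adjusted p under 0.05, with a median log2 difference of 0.55. With library totals alone 26 rose and 0 fell (median 0.36), with the length trend removed 16 rose and 1 fell (median 0.32), and with length and codon trends removed 9 rose and 0 fell (median 0.28). KMT2C, a histone H3 lysine 4 methyltransferase, had 131, 156, 152 and 117 CPM on polysomes with sgLUC and 195, 217, 254 and 239 CPM with sgYBX1, at 84.8 ± 7.21 and 77.3 ± 2.37 CPM in total RNA (log2 difference 0.84 ± 0.13, adjusted p = 3.8e-04). Its call was lost with the length trend removed (0.39). CHD6, a chromatin remodeler, had 110, 137, 169 and 109 CPM with sgLUC and 209, 194, 234 and 240 CPM with sgYBX1 (0.94 ± 0.15, adjusted p = 3.8e-04). Both groups were apart in each gene. The list also held KMT2A, the gene whose fusion drives this leukemia (0.89), and the SWI/SNF subunits SMARCC1 (0.86), SMARCA2 (0.79) and SMARCA4 (0.68). The acetyltransferases EP300 (0.68) and CREBBP (0.52) and the DNA demethylase TET2 (0.55) rose too. Reads of the fused and the intact KMT2A copy were not separated. The list had a median coding length of 5983.5 bases, against 1410 over all genes tested.

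Genes of the nucleolus, of RNA helicases and of mitosis had more gains than the background. Of 43 nucleolar ribosome biogenesis factors 15 rose (34.9%) and 4 fell, with a median of 0.25, which was 0.05 with 12 higher and 12 lower when library totals were used. UTP20, a component of the small-subunit processome, had 117, 109, 100 and 96.0 CPM with sgLUC and 170, 161, 178 and 183 CPM with sgYBX1 on polysomes (log2 difference 0.69 ± 0.10, adjusted p = 3.1e-04). With length and codon trends removed this call was lost (0.30), and 9 genes of the list rose and 3 fell. The box C/D proteins NOP56 (0.61) and NOP58 (0.81), NCL (nucleolin, 0.59) and DKC1, the pseudouridine synthase (0.70), rose. The 4 genes that fell were POLR1B (−0.39) and POLR1C (−0.39), of RNA polymerase I, NOP16 (−0.34) and NHP2 (−0.46), and they were named after their values were seen. Of 49 DEAD and DEAH box helicases 11 rose (22.4%) and DDX5 and DDX23 fell, with a median of 0.02. With library totals 9 rose and 11 fell (median −0.16), and in 12 of the 16 fits without 1 library 0 fell (edgeR). DDX21, a helicase of rRNA synthesis, had 2695, 2933, 3542 and 2592 CPM with sgLUC and 4874, 4469, 5271 and 5231 CPM with sgYBX1 on polysomes (0.69 ± 0.12, adjusted p = 7.4e-04), and DDX10 rose by a log2 difference of 0.91 ± 0.14.

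Of 47 mitosis genes 16 rose (34.0%) and 4 fell, with a median of 0.05. With library totals 10 rose and 11 fell (median −0.14), and with length and codon trends removed 6 rose and 3 fell. CENPF, a large kinetochore protein, had 467, 460, 473 and 392 CPM with sgLUC and 678, 743, 724 and 757 CPM with sgYBX1 on polysomes (log2 difference 0.84 ± 0.10, adjusted p = 8.6e-05). Its difference was 0.13 and not called with length and codon trends removed. NUF2, of the microtubule-binding NDC80 complex, had 63.4, 60.1, 60.4 and 54.6 CPM with sgLUC and 106, 105, 94.3 and 101 CPM with sgYBX1 (0.88 ± 0.11, adjusted p = 8.6e-05). Those that fell were CCNB1 (cyclin B1, −0.59) and CKS2 (−0.58), and PLK1 (−0.38) and CDC20 (−0.31), named after their values were seen. Of 43 DNA replication genes 6 were higher, such as RFC1 (0.66) and RRM1 (0.53), and 9 lower, RRM2 (−0.59), MCM7 (−0.39) and MCM2 (−0.33) among them. With library totals 4 were higher and 21 lower, and fits without 1 library gave 3 (without total sgLUC replicate 2) to 11 lower. The 2 subunits of ribonucleotide reductase, RRM1 and RRM2, thus had opposite signs. None of the 50 replication-dependent histone genes passed in edgeR, and mRNAs of such genes mostly lack the poly(A) tail used for selection here.

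**Figure D5:**
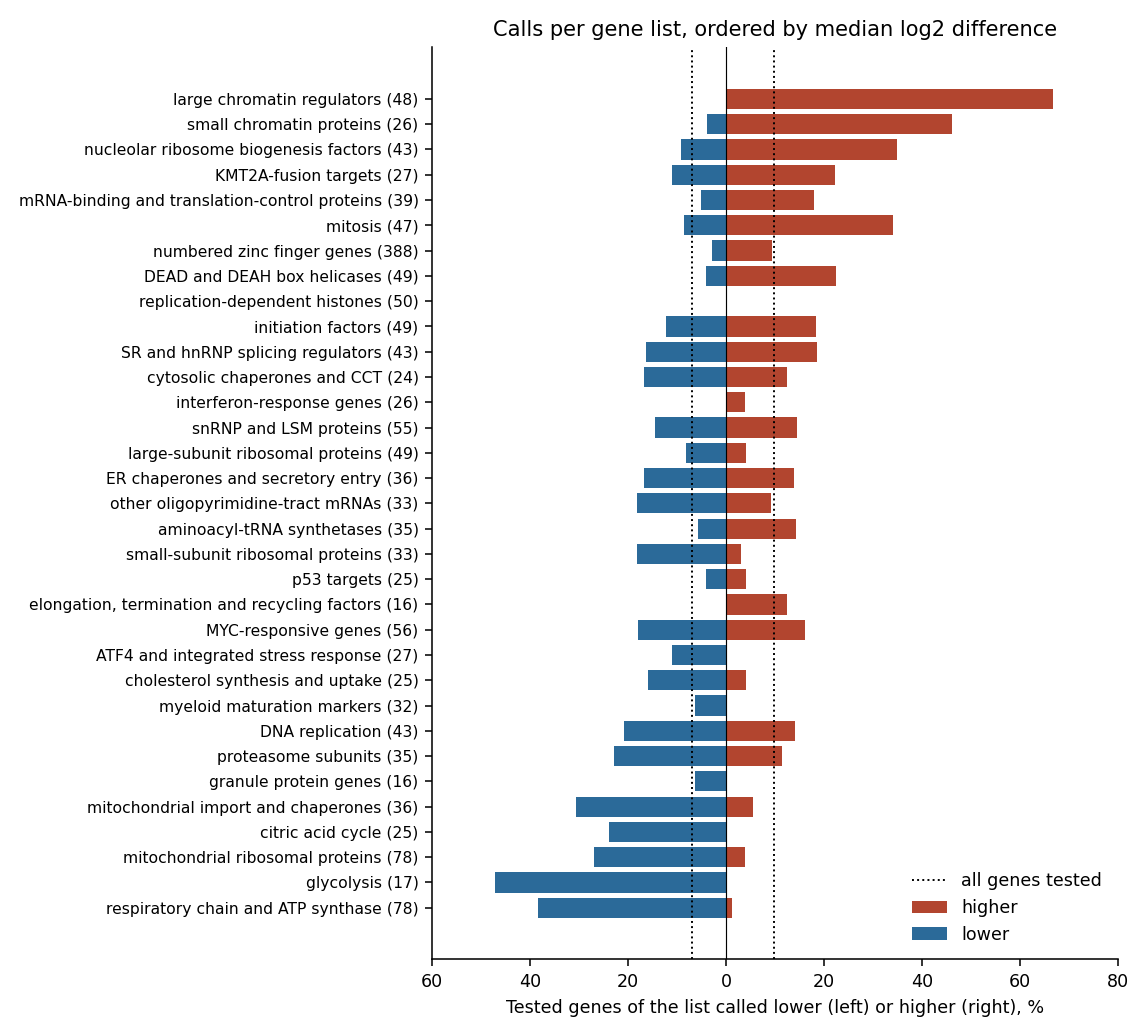
Percentage of the tested genes of each list that were called higher (red, to the right) or lower (blue, to the left), with the number tested in brackets and lists of 15 or more ordered by their median log2 difference. Dotted lines mark the shares over all genes, 9.84% higher and 6.89% lower; large chromatin regulators reach 66.7% higher, and glycolysis 47.1% and the respiratory chain 38.5% lower.

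Among genes of energy metabolism losses were more frequent than gains. Of 78 respiratory chain and ATP synthase genes 30 fell (38.5% against 6.89%) and UQCRB rose (0.31), with a median log2 difference of −0.31. With library totals 53 fell and 0 rose, and with length and codon trends removed 17 fell and 2 rose. COX7A2, a small subunit of cytochrome c oxidase, had 105, 82.7, 69.6 and 106 CPM with sgLUC and 50.7, 43.9, 34.9 and 32.1 CPM with sgYBX1 on polysomes. Its total level was 124 ± 4.23 and 116 ± 4.44 CPM, and the log2 difference was −1.07 ± 0.18 (adjusted p = 4.9e-04). CYC1, cytochrome c1 of complex III, had 266, 292, 231 and 319 CPM with sgLUC and 150, 156, 125 and 122 CPM with sgYBX1 (−1.0 ± 0.13, adjusted p = 1.5e-04). COX5A had 64.9, 67.6, 52.1 and 88.9 CPM with sgLUC and 37.3, 34.6, 32.2 and 36.0 CPM with sgYBX1 (−0.88 ± 0.15, adjusted p = 5.3e-04). In all of them each sgYBX1 library was below each sgLUC library, but they were chosen partly for ratios without overlap. Other complexes were also represented, with NDUFA8 (−0.65) and NDUFA9 (−0.58) of complex I, SDHB (−0.60) and SDHD (−0.60) of complex II and the ATP synthase genes ATP5MC3 (−0.79) and ATP5F1B (−0.46).

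Of 17 glycolytic genes 8 fell (47.1%) and 0 rose (edgeR), with a median of −0.26. ALDOA, fructose-bisphosphate aldolase, had 2477, 2939, 2723 and 2708 CPM on polysomes with sgLUC and 1977, 1571, 1514 and 1575 CPM with sgYBX1 (log2 difference −0.65 ± 0.11, adjusted p = 7.2e-04). ENO1, enolase, had 4793, 5013, 4537 and 4634 CPM with sgLUC and 4306, 3472, 3417 and 3480 CPM with sgYBX1 (−0.45 ± 0.11, adjusted p = 0.00547). In both genes sgYBX1 replicate 1 was the highest of its group and still below the sgLUC libraries. GAPDH (−0.42), PGK1 (−0.63), PGAM1 (−0.56), PKM (−0.28), LDHA (−0.32) and LDHB (−0.42) made up the rest. The list had a median coding length of 1302 bases, against 1410 over all genes tested. Of 25 citric acid cycle genes 6 fell and 0 rose (edgeR), with a median of −0.23, and with library totals 17 fell (median −0.43) and 9 fell without polysomal sgLUC replicate 2. Besides IDH3B they were MDH2 and MDH1, both malate dehydrogenases (−0.69 and −0.50), DLST, of the 2-oxoglutarate dehydrogenase complex (−0.82), and the 2 succinate dehydrogenase subunits given above.

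Of 78 mitochondrial ribosomal proteins 21 fell (26.9%) and MRPL1 (0.43), MRPS5 (0.49) and MRPL33 (0.53) rose, with a median of −0.24. The number that fell was 45 with library totals, 11 with the length trend removed, and 10 (without total sgYBX1 replicate 4) to 29 (without polysomal sgYBX1 replicate 1) in fits without 1 library. MRPS23 had 32.1, 27.5, 31.4 and 34.6 CPM on polysomes with sgLUC and 23.7, 19.7, 19.5 and 19.2 CPM with sgYBX1 (log2 difference −0.59 ± 0.12, adjusted p = 0.00201). MRPS18A (−0.52 ± 0.11) and MRPL36 (−0.87 ± 0.20) fell too. Of 36 mitochondrial import and chaperone genes 11 fell (30.6%), such as SAMM50 of the outer membrane assembly complex (−0.61) and TOMM22 of the import channel (−0.38), with a median of −0.23. With library totals 19 fell and with the length trend removed 6, and fits without 1 library gave 6 to 14. The 2 that rose were TIMM44 (0.68 ± 0.13), which tethers the import motor, and HSPD1 (0.54 ± 0.11), the mitochondrial chaperonin, whose co-chaperonin HSPE1 fell (−0.43).

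The translation machinery was divided. Of 49 initiation factors 9 rose (18.4%) and 6 fell (12.2%), with a median of −0.05, and with library totals 6 rose and 20 fell. EIF3A, the largest subunit of eIF3, had 1792, 1680, 2112 and 1498 CPM on polysomes with sgLUC and 2900, 2944, 3533 and 3526 CPM with sgYBX1, while total RNA held 888 ± 22.7 and 892 ± 8.08 CPM (log2 difference 0.86 ± 0.13, adjusted p = 2.6e-04). EIF5B, which joins the ribosomal subunits, had 2120, 2756, 4030 and 2794 CPM with sgLUC and 5006, 4877, 5847 and 5745 CPM with sgYBX1 (0.87 ± 0.17, adjusted p = 0.00182). Both were without overlap, and the EIF5B call was lost with length and codon trends removed (0.25). EIF3J (0.81), EIF2S2 (0.60), PABPC1 (0.62) and PABPC4 (0.78) rose. EIF4A3 (−0.61), EIF6 (−0.63), PAIP2 (−0.53), EIF1B (−0.74), EIF3F (−0.32) and EIF2B5 (−0.40) fell. Subunits of eIF3 thus had either sign. Of 16 elongation, termination and recycling factors the recycling factor ABCE1 (0.52 ± 0.13) and the release factor GSPT1 (0.40 ± 0.12) rose and 0 fell (edgeR), although with library totals 0 rose and 3 fell. GSPT1 lost its call without total sgLUC replicate 1 or 3, total sgYBX1 replicate 4, polysomal sgLUC replicate 4 or polysomal sgYBX1 replicate 4.

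Of 35 aminoacyl-tRNA synthetase genes 5 rose (14.3%), NARS1 (0.76 ± 0.12) and EPRS1 (0.53) among them, and IARS1 (−0.53 ± 0.11) and AARS1 (−0.32) fell. With library totals 3 rose and 14 fell. Most cytosolic ribosomal protein genes did not pass. Of 49 large-subunit genes RPL6 (0.44 ± 0.10) and RPLP2 (0.28) rose and RPL30, RPL10A (−0.56), RPL10 (−0.35) and RPL39L (−0.47) fell, with a median of −0.08. RPL30 had 886, 617, 522 and 933 CPM on polysomes with sgLUC and 396, 369, 338 and 338 CPM with sgYBX1 (log2 difference −0.95 ± 0.18, adjusted p = 0.00102). RPL6 had 510, 461, 401 and 432 CPM with sgLUC and 498, 546, 491 and 542 CPM with sgYBX1, so its polysomal CPM overlapped and only its ratio to a lower total level was apart. Of 33 small-subunit genes 1 rose (3.03%) and 6 fell (18.2%), among them RPSA (−0.46 ± 0.11), with a median of −0.12, and fits without 1 library gave 3 to 11 lower. With library totals 0 rose and 18 large-subunit and 14 small-subunit genes fell. Other mRNAs that begin with an oligopyrimidine tract had 3 of 33 higher, NAP1L1 (0.63), PABPC1 and EIF3E (0.39), and 6 lower, such as COX7C (−0.51) and BTF3 (−0.62).

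Chaperones, proteasome and splicing genes also went both ways. Both cytosolic HSP90 genes rose: HSP90AA1 had 18956, 20777, 31265 and 21964 CPM on polysomes with sgLUC and 41140, 36175, 45335 and 45704 CPM with sgYBX1 (log2 difference 0.79 ± 0.16, adjusted p = 0.00199), and HSP90AB1 had a difference of 0.71 ± 0.15 (adjusted p = 0.0024). The ER member of that family, HSP90B1, rose as well (0.64 ± 0.13), and all of them have over 20% lysine and glutamate codons. With length and codon trends removed, HSP90AB1 (0.36) and HSP90B1 (0.29) lost their calls. In the chaperonin CCT, which folds actin and tubulin, CCT7 (−0.54) and TCP1 (−0.51) fell. Of 35 proteasome genes 8 fell (22.9%), such as PSMD6 (−0.61 ± 0.13) and PSMB7 (−0.77 ± 0.18), and PSMA4, PSMD7, PSMD11 and PSMD1 rose, while with library totals 18 fell and fits without 1 library gave 5 to 13. Of 43 SR and hnRNP genes 8 rose (18.6% against 9.84% of all genes tested) and 7 fell (16.3% against 6.89%). RBM39 (0.87 ± 0.14) and SYNCRIP (0.65 ± 0.11) were among the first and SRSF7 (−0.65) and SRSF9 (−0.63) among the second. With library totals 6 rose and 16 fell. Of 55 snRNP and LSM genes 8 rose (14.5%), such as SNRNP27 (0.88), and 8 fell (14.5%), such as SF3B6 (−0.84). In this list 6 rose and 22 fell with library totals.

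Among 27 genes known as targets of KMT2A fusions 6 rose (22.2%) and 3 fell, with a median of 0.09 that was −0.11 with library totals. JMJD1C, a putative histone demethylase, had 343, 419, 322 and 242 CPM on polysomes with sgLUC and 549, 680, 613 and 625 CPM with sgYBX1 (log2 difference 0.75 ± 0.16, adjusted p = 0.00278), a call that was lost with the length trend removed. HOXA9, the homeobox factor that KMT2A fusions keep active, had 0.676, 0.851, 1.05 and 1.59 CPM with sgLUC and 0.253, 0.276, 0.703 and 0.642 CPM with sgYBX1 on polysomes, against 16.5 ± 1.69 and 19.1 ± 0.860 CPM in total RNA. The polysomal CPM of the 2 guides overlapped at this low level, the ratios to total RNA did not, and the log2 difference was −1.39 ± 0.33 (adjusted p = 0.00666). It was not called by voom with group weights or without polysomal sgLUC replicates 3 and 4. HOXA10 rose (0.42), and FUT4 (−0.41) and RUNX2 (−0.49) fell. Of 32 myeloid maturation markers GRN (−0.63 ± 0.13) and NCF4 (−0.33 ± 0.11) fell and 0 rose (edgeR), close to the background. The NCF4 call was lost in 10 of 16 fits without 1 library and with the length trend removed. Of 16 granule protein genes CST7 fell (−0.52 ± 0.15).

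Of 56 MYC-responsive genes 9 were higher (16.1%) and 10 lower (17.9%), with a median of −0.13. With library totals 27 were lower, and fits without 1 library gave 5 to 15. Those that rose included NCL, NOP56 and TCOF1 (0.75), of ribosome biogenesis, and those that fell ODC1, the first enzyme of polyamine synthesis (−0.40), and LDHA. Of 39 mRNA-binding and translation-control genes 7 rose (17.9% against 9.84% of all genes tested), among them LARP1 (0.63 ± 0.13), FMR1 (0.58) and CELF1 (0.51). CAPRIN1 (−0.42) and TIAL1 (−0.44) fell (5.13% against 6.89%). With library totals 2 genes of this list rose and 11 fell, and fits without 1 library gave 0 to 6 lower. Only YBX1 was called among the 5 tested cold-shock domain genes. Of 388 numbered zinc finger genes 36 rose (9.28%) and 11 fell (2.84%). With library totals the counts were 13 and 39, where all 12517 genes tested split into 677 higher and 2694 lower. With length and codon trends removed they were 18 and 20, where all genes split into 852 and 622. Without polysomal sgLUC replicate 2 the number that fell was 28, against 1301 of all genes. Of 27 genes of the integrated stress response SLC1A5 (−0.50 ± 0.10), ALDH18A1 (−0.48 ± 0.14) and PHGDH (−0.33), which take up or make amino acids, fell and 0 rose (edgeR). Few members passed in the p53 list, where XPC rose (0.52) and CDKN1A fell (−0.43 ± 0.10), in the interferon list, where XAF1 rose (0.34), and in the cholesterol list, where SQLE rose (0.46) and DHCR7, STARD4, ACAT2 and NSDHL fell. The XAF1 call was lost in 8 of the 16 fits without 1 library.

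In 21 of the 2095 genes called the total change was called as well, against 136 of all 12517 genes tested (1.09%). None of them had called changes of opposite sign in the 2 fractions by edgeR. In 9 the polysomal change had the same sign and was larger, and in 12 it was closer to 0. The log2 difference subtracts the total change, so error in a called total change moves a gene toward the second pattern. FBXO33, an F-box protein, fell in total RNA from 20.4 ± 0.942 to 14.1 ± 0.828 CPM and had 33.3, 28.3, 34.5 and 33.5 CPM on polysomes with sgLUC and 29.4, 32.8, 37.5 and 30.5 CPM with sgYBX1. The 2 polysomal groups overlapped fully, and the log2 difference was 0.54 ± 0.13 (adjusted p = 0.00634). CD84, a receptor of the SLAM family, fell from 29.4 ± 1.89 to 19.7 ± 0.898 CPM in total RNA and had 217, 198, 208 and 187 CPM with sgLUC and 175, 167, 212 and 190 CPM with sgYBX1 on polysomes (0.45 ± 0.11, adjusted p = 0.00853). NIBAN1 (0.66 ± 0.15), INHBA, a subunit of activin (0.58 ± 0.13), and TLDC2 (0.51 ± 0.13) had the same pattern. The total changes of these genes were close to the threshold (edgeR adjusted p = 0.043, 0.0489 and 0.0459). With library totals FBXO33 (0.35), TLDC2 (0.32) and CD84 (0.25) lost their calls. Calls in total RNA use a spread shared with the more variable polysomal libraries, so the number with a called total change is a low count.

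The authors' files also hold a gene effect score from a public CRISPR screen of MOLM13 cells, in which a more negative score means that cells with a guide against the gene were lost. Among genes of at least 10 CPM, 321 of 1115 scored genes that rose had a score below −0.5 (28.8%), as had 246 of 768 that fell (32.0%) and 1331 of 5994 in the rest (22.2%). The median scores were −0.173, −0.218 and −0.132. Genes called in either direction thus had a somewhat higher share of dependencies than genes that were not, and no test was made of it. Expression level was not matched between these classes. Over all genes tested the median level was 87.2 CPM in genes that rose, 48.1 CPM in genes that fell and 16.5 CPM in the rest. Without the floor of 10 CPM the share in the rest was 14.7%.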

How the data were processed

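Poly(A)-selected RNA from total lysate and pooled heavy gradient fractions was sequenced in 150-base pairs, per the labels. Tools listed by the submitters' processing notes are STAR 2.7.8a, featureCounts 2.0.1, Trimmomatic 0.36.5 and DESeq2 1.30.0, with GRCh38; the annotation, strand setting and filters are not given in the sources used here. The authors deposited raw counts per gene, and 62.1% of counts from 1 to 39 were even. The deposited symbol column belonged to the Entrez identifier beside it in 11 rows, so genes were named by identifier from RefSeq (18963), the deposited tables (18) or not at all (10). The deposited gene effect score comes from a public screen. Deposited fold changes and p-values, which hold the authors' own comparisons, were not used.

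Genes passing filterByExpr were fitted in edgeR 4.0.16 (R 4.3.3) with TMM factors, 1 model of 4 group means over 16 libraries and a quasi-likelihood test of the interaction, two-sided, with Benjamini-Hochberg adjustment. Alternatives used limma 3.58.1 and DESeq2 1.42.0. Log2 CPM used a prior count of 2. Coding sequences came from GENCODE v29 (12436 of 12517 genes, 99.4%). In simulated data with each group's spread (12404 genes, 200 changed) 50% of 1.5-fold and 78% of 2-fold changes were recovered, with 7 false calls among 118. The members, gene lists and alternatives were chosen with earlier results of these data known. Named genes were YBX1, 11 genes of the study text or its antibody list, and the 12 highest and 12 lowest differences. These highest and lowest genes were called, over 1.5-fold, at least 10 CPM and without overlap. Also named were 2 per list with the smallest p, and up to 5 each whose total change was called with an opposite or smaller polysomal change. Other members are named as examples of their lists and were chosen after their values were seen. Lists are described by counts and medians, without a test. A few members that these rules would name are not reported here.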

Additional observations from a re-analysis of the deposited data

Results flagged for a closer look

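Outlying libraries were looked for in 190 groups of 4 polysome ratios and in 4 groups of shares of short coding sequences. In 13 groups, all of polysome ratios, 1 library lay far from the other 3 by Dixon's test at 95%. Chance alone would flag about 1 in 20 of the 194 groups tested, so many of the 13 may be chance. The polysome ratio is on the log2 scale. With sgLUC, replicate 4 was the low one for PPFIBP1 (−0.65 against 0.28 to 0.46), SYNCRIP (0.61 against 0.93 to 0.95), CENPF (0.77 against 1.0 to 1.04), XAF1 (1.4 against 1.65 to 1.67) and NIBAN1 (0.65 against 1.2 to 1.28), and replicate 1 for RPS15 (1.95 against 2.17 to 2.22). With sgYBX1, replicate 1 lay nearest to the sgLUC libraries for MNS1 (3.68 against 3.94 to 3.96), ITSN1 (1.25 against 1.68 to 1.76), MRPS23 (−1.24 against −1.55 to −1.51), ALDOA (0.8 against 0.42 to 0.47), ENO1 (0.6 against 0.27 to 0.3) and TLDC2 (1.82 against 2.2 to 2.23). For HSPD1, sgYBX1 replicate 4 was high (0.82 against 0.69 to 0.71). Of these genes XAF1 lost its call without sgLUC polysomal replicate 4.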

How the results depend on the processing

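No gene called in the main comparison was called with the opposite sign under any alternative. With library totals alone 3371 genes were called, 20.1% of them higher against 58.8% with TMM factors. Without polysomal sgLUC replicates 3 and 4, an alternative chosen after seeing the data, 47.7% of 2308 calls were higher. The other alternatives gave 1474 to 2583 calls, with DESeq2 at the upper end and length and codon trends removed at the lower, and fits without 1 library gave 1511 to 2718. The log2 difference of YBX1 was 0.13 with library totals, 0.32 with no filter and 0.19 without polysomal sgLUC replicates 3 and 4, none of them called, and 0.29 to 0.41 without 1 library. Of 86 other named genes that were called, 19 lost the call with length and codon trends removed, 9 with library totals, 4 without polysomal sgLUC replicates 3 and 4 and 3 or fewer under each other alternative; the cause was not tested. Without 1 library the difference in the share of short coding sequences was −5.36 to −4.35 percentage points on polysomes and −1.08 to −0.764 in total RNA (exact permutation p = 0.0571, the smallest that 3 against 4 allows). Replicate numbers showed no clear pairing of the samples. Deviations of same-numbered libraries correlated at −0.05 to 0.113 over 24 comparisons, and 5 of 24 correlated best with their own number. Most of these comparisons cross guides and polysomal libraries vary widely. They therefore cannot show whether total and polysomal RNA shared cultures. With the replicate block 1993 genes were called, 1940 of them among the 2095. In simulated data with 200 changed genes 4% of 1.25-fold changes were recovered. Fewer calls make the adjusted p threshold stricter, and 118 genes were called there against 2095 in the main comparison. These recovery rates therefore do not carry over to the main comparison.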

Other observations

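Some markers of cell identity also differed in polysome association. CEBPA, the granulocytic transcription factor, had a log2 difference of −0.41 (adjusted p = 0.00566, edgeR) and CD33, a myeloid surface receptor, −0.51 (adjusted p = 0.028). PTPRC (0.4, adjusted p = 0.139), SPI1 (0.04, adjusted p = 0.904) and MEIS1 (0.07, adjusted p = 0.722) did not pass. The lymphoid gene CD3D had 0.667 and 0.718 CPM in total RNA and 4.34 and 2.0 CPM on polysomes with sgLUC and sgYBX1, a log2 difference of −1.21 (adjusted p = 0.0369).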
